A study of Mus musculus with 24 samples.

Results

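The effect of losing Snf2h on the oocyte transcriptome was compared between the 2 phases of oocyte growth that the RNA-seq of this study covers. For each gene, the difference between knockout (KO) and wild type (WT) in growing oocytes was subtracted from the same difference in fully grown oocytes, on the log2(RPKM + 1) scale, where RPKM is a read count scaled by transcript length and by the number of mapped reads. All 16 RNA-seq libraries of the 24 samples in the series entered this comparison, 4 for each genotype and phase. The other 8 samples are ATAC-seq and were not analysed here.

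Oocytes came from B6/129 mice. WT oocytes were Snf2h(fl/fl), and KO oocytes carried ZP3-Cre beside the same floxed alleles. Cre was present in the KO alone, so effects of the transgene and of Snf2h loss cannot be told apart. The growing phase comprised stages GO1 (diameter of 40 to 45 µm) and GO2 (50 to 55 µm). The fully grown phase (above 70 µm) comprised FGO, collected after hormone stimulation, and nFGO, collected without it. Each of the 8 groups of genotype and stage had 2 libraries, and each library was made from 20 pooled oocytes. The RNA of the 4 nFGO libraries is labelled polyA and that of the other 12 libraries total RNA, so nFGO may also differ from the other stages in preparation. Whether replicates are separate animals is not in the labels, and the p-values therefore cover only the spread between these libraries. In pooled oocytes, fewer cells expressing a gene and less RNA per cell cannot be told apart.

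SNF2H, the protein encoded by Smarca5, is an ATPase of the ISWI family, which slides nucleosomes and sets their spacing in complexes with partner proteins. A mouse oocyte grows while arrested in prophase of the first meiotic division, stores maternal mRNA and protein, and largely ceases transcription by the time it is fully grown. The Zp3 promoter drives Cre in the oocyte from early growth onward.

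Smarca5 (minus strand of chromosome 8, 80698507 to 80739497, mm10) was low in all 8 KO libraries. In growing oocytes it lay between 37.1 and 43.0 RPKM in the 4 WT libraries and between 0.982 and 2.06 RPKM in the 4 KO libraries. Among fully grown libraries 3 WT ones held 45.1, 48.0 and 48.7 RPKM, while WT FGO replicate 2 stood apart at 13.9 RPKM, and the KO libraries held 0.701 to 1.32 RPKM. The KO effect on Smarca5 was -3.95 in growing and -4.15 in fully grown oocytes on the log2(RPKM + 1) scale. The difference between phases was -0.21 ± 0.40 (SE) and did not pass the test (limma, adjusted p = 0.814).

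All 12 oocyte marker genes (among them Gdf9, Bmp15, Zp3 and Nobox) were present, with summed levels of 11459 to 26601 RPKM per library, and the KO effect differed between phases in 0 of the 12 (limma; 2 at an unadjusted p under 0.05). Those markers of other ovarian cells that were in the table were low beside the oocyte markers. Of 15 granulosa and cumulus markers 6 were in the table, 3 of 5 for theca, 2 of 6 for stroma, 1 of 4 for endothelium and 1 of 7 for blood. The levels of the absent ones are unknown. Summed stroma marker levels were 1.87 to 2.96 RPKM in WT and 0.0284 to 0.278 RPKM in KO fully grown libraries. In growing ones they were 0.114 to 11.7 RPKM in WT and 0.0767 to 0.293 RPKM in KO. The 1 stroma gene tested was called lower in KO fully grown oocytes (-1.50), and its difference between phases (-0.58) did not pass the test. Summed granulosa marker levels ran from 16.7 to 22.1 RPKM in WT growing, 14.3 to 33.4 in KO growing, 36.3 to 45.2 in WT fully grown and 46.3 to 72.1 in KO fully grown libraries. In fully grown libraries most of this was Cyp19a1, at 23.1 to 31.6 RPKM in WT and 32.5 to 42.8 RPKM in KO, while in growing ones it was at 2.60 to 5.42 and 2.69 to 15.8 RPKM. Its difference between phases was -0.31 and did not pass the test (limma, adjusted p = 0.562). The KO effects on Fshr and Inha, which reached at most 3.70 and 12.8 RPKM, were more positive in fully grown oocytes (1.20 and 2.01, adjusted p = 0.0229 and 0.0163). They were 2 of the 5 granulosa markers tested, and the others did not pass the test, with differences of -0.97 (Kitl), -0.31 (Cyp19a1) and 0.31 (Nr5a2). These marker levels moved with the comparison, and their part in the results below was not tested.

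The KO effect differed between the phases in 993 of 14557 genes tested (6.82%; limma, Benjamini-Hochberg adjusted p under 0.05). It was more positive in fully grown oocytes in 497 genes (3.41%) and more negative in 496 (3.41%). These counts depended on single libraries: with 1 of the 16 left out they ran from 250 (without KO GO2 replicate 2) to 727 (without KO GO1 replicate 2) and from 262 (without KO GO2 replicate 2) to 657 (without KO GO1 replicate 1). Without WT FGO replicate 2, the library low in Smarca5, they were 406 and 387. The difference was at least 2-fold in 335 of these genes and at least 4-fold in 36. Within the growing phase, GO2 and GO1 differed in 582 genes (4%; 268 more positive and 314 more negative at GO2, and 279 and 186 under quantile normalization), and within the fully grown phase FGO and nFGO differed in 9 genes (0.0618%; 1205 genes at an unadjusted p under 0.05). The first of these counts ran from 4 without KO GO2 replicate 2 to 2402 without KO GO1 replicate 2. The second ran from 2 without KO nFGO replicate 2 to 28 without WT FGO replicate 2. Contrasts between single stages rest on 8 libraries and are less precise than the one between phases. Between single stages of different phases the counts ran from 357 (nFGO less GO1, 2.45%) to 553 (FGO less GO2, 3.8%), with 507 for FGO less GO1 (3.48%) and 462 for nFGO less GO2 (3.17%). All 4 such differences between a fully grown and a growing stage had the same sign in 959 of the 993 genes (96.6%) and in 39.9% of all genes tested, and the call is made on the mean of these 4.

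**Figure D1:**
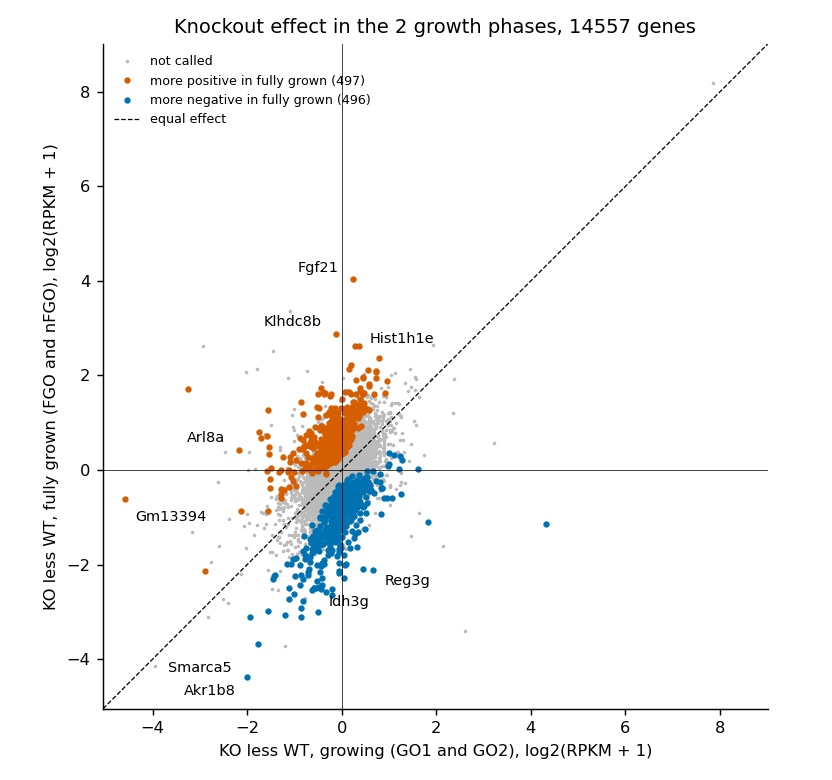
KO less WT difference of each of 14557 genes in growing oocytes (x axis) and fully grown oocytes (y axis), both on the log2(RPKM + 1) scale and each a mean over 2 stages. The 497 genes whose effect was more positive in fully grown oocytes (orange) lie above the dashed line of equal effect and the 496 more negative ones (blue) below it.

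The 993 genes were sorted by the phase in which KO and WT differed, as a description, since the same libraries gave the difference between phases. Of the 993, 747 (75.2%) passed the test in the fully grown phase and not in the growing phase, and 90 (9.06%) in the growing phase only. Over all genes tested these classes held 3664 genes (25.2%) and 466 (3.2%), so fully grown only outnumbered growing only by about as much (7.86 to 1) as in the 993 genes (8.30 to 1). A further 94 differed in both phases in the same direction, 32 in both phases in opposite directions, and 30 in neither phase taken alone. Over all genes tested, 4534 differed between KO and WT in fully grown oocytes (31.1%; 2000 higher, 2534 lower in KO) and 1336 in growing oocytes (9.18%; 433 higher, 903 lower). Under quantile normalization the growing split was 603 higher and 768 lower. With a library left out the growing count ran from 559 (without KO GO2 replicate 2) to 2094 (without KO GO1 replicate 2) and the fully grown count from 3476 to 5144, so the fully grown count was the higher in each of the 16 fits. The median size of the KO effect in the 993 genes was 0.21 in growing and 0.75 in fully grown oocytes. Over all genes tested the same medians were 0.16 and 0.24. The genes with a more positive difference were split unevenly over the single-phase classes: 372 passed in fully grown oocytes alone and 66 in growing oocytes alone. Among those with a more negative difference the counts were 375 and 24. A gene lower in KO in growing oocytes alone has a more positive difference. Over all genes tested, too, more were lower (903) than higher (433) in KO growing oocytes.

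Of the 15 named genes with the most positive difference, 8 had a KO effect called in fully grown oocytes alone. The gene with the smallest adjusted p among them was Klhdc8b (chromosome 9, 108447636 to 108461581, minus strand, mm10), which encodes a kelch-repeat protein. In the 4 KO fully grown libraries Klhdc8b stood at 14.9, 17.6, 7.23 and 7.46 RPKM, against 0.622, 0.252, 1.04 and 0.664 RPKM in the WT ones. In the 8 growing libraries of both genotypes it lay between 0.955 and 2.71 RPKM. KO and WT libraries overlapped in the growing phase and were apart in the fully grown phase, and the difference between phases was 3.01 ± 0.27 (SE; limma, adjusted p = 0.000253).

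Hist1h1e (chromosome 13, 23620629 to 23622558, minus strand), a linker histone gene, behaved alike. It was at 8.14 and 5.32 RPKM in KO FGO and 10.2 and 8.32 RPKM in KO nFGO, and under 1 RPKM in the other 12 libraries. The difference between phases was 2.33 ± 0.22 (SE; limma, adjusted p = 0.00028). Igsf21, an immunoglobulin superfamily gene of the cell surface, was at 6.29 to 9.55 RPKM in the KO fully grown libraries and at no more than 0.894 RPKM elsewhere (difference 2.27, limma adjusted p = 0.00066). Birc7, a gene of the inhibitor of apoptosis family, was at 6.21 to 9.75 RPKM in KO fully grown libraries and at no more than 1.22 RPKM elsewhere (difference 2.02, adjusted p = 0.000313). In each of these 3 genes the KO fully grown libraries lay above all others. Their growing levels lay near or below 1 RPKM, where the scale compresses differences. The authors' log2 fold changes at GO1 and GO2 were 0.80 and 0.87 for Hist1h1e, 1.27 and 1.43 for Igsf21 and 0.28 and 0.42 for Birc7. At FGO and nFGO they were 4.24 and 4.32, 4.47 and 4.55, and 3.70 and 2.84. Extl1, an exostosin-like glycosyltransferase gene, differed less sharply: it was at 19.1 to 29.1 RPKM in KO and 6.38 to 8.70 RPKM in WT fully grown libraries, and at 6.86 to 18 RPKM in growing ones (difference 2.04, adjusted p = 0.000968). The unannotated transcript Gm13962 was at 4.81 to 7.93 RPKM in WT growing oocytes and at 0.351 to 0.731 RPKM in WT fully grown ones, while the KO fully grown libraries held 2.93 to 7.35 RPKM (difference 2.17, adjusted p = 0.00111).

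Fgf21 (chromosome 7, 45613886 to 45615490, minus strand), a hormone of the fibroblast growth factor family and a target of the integrated stress response, rose most in fully grown KO oocytes. It was at 45.5 and 70.7 RPKM in KO FGO and at 22.6 and 0.267 RPKM in KO nFGO. Every other library was at or below 0.663 RPKM, and 3 WT libraries were listed at 0. The difference between phases was 3.79 ± 0.89 (SE; limma, adjusted p = 0.0286), and KO nFGO replicate 2 stood with the WT libraries. With 1 library left out the call held in 6 of 16 fits.

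A second group of 6 among the 15 had a KO effect called in growing oocytes alone, where the KO was lower. Arl8a (chromosome 1, 135146824 to 135156269, plus strand), a small GTPase that couples lysosomes to microtubule motors, was at 23.5, 23.7, 17 and 15.2 RPKM in WT growing libraries and at 3.65, 5.48, 3.06 and 2.48 RPKM in KO ones. In fully grown oocytes KO held 8.31 to 9.89 RPKM and WT 2.73 to 8.91 RPKM, so the genotypes overlapped there. WT fell with growth while KO rose, and the difference between phases was 2.61 ± 0.33 (SE; limma, adjusted p = 0.00134). Stk25, a germinal centre kinase of the Ste20 family, was at 62.5 to 107 RPKM in WT and 22.4 to 39.7 RPKM in KO growing libraries, with 17.5 to 46.4 and 33.6 to 59.9 RPKM in fully grown ones (difference 2.28, adjusted p = 0.0095). Slc10a6, a transporter of sulfated steroids, was at 5.63 to 10.6 RPKM in WT and 0.912 to 4.62 RPKM in KO growing libraries, and the genotypes overlapped in fully grown oocytes at 11.4 to 36.7 RPKM (difference 2.02, adjusted p = 0.00582). These 3 calls held with each of the 16 libraries left out in turn. Gm14222 followed the same order, at 3.05 to 5.77 RPKM in WT and 0.133 to 1.52 RPKM in KO growing oocytes (difference 2.57, adjusted p = 0.00947). Gm13394 was at 18.7 to 30.1 RPKM in WT growing libraries and at most 0.0622 RPKM in KO ones, 3 of which were listed at 0. Its fully grown values were scattered from 0 to 8.24 RPKM in both genotypes (difference 3.97, adjusted p = 0.0275), and its call held in 6 of 16 fits with a library left out.

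The sixth gene of this group was Ighg2b, an immunoglobulin heavy chain constant gene, and the immunoglobulin variable genes Ighv1-46 and Ighv1-44 were also among the 15. Ighg2b was at 0.0517 and 0 RPKM in KO GO2 and at 0.71 RPKM in WT FGO replicate 1, and between 54.2 and 253 RPKM in the other 13 libraries. Its difference of 4.96 (limma, adjusted p = 0.0433) held in 2 of 16 fits with a library left out. Ighv1-46 differed by 2.82 (adjusted p = 0.0279) and Ighv1-44 by 2.0 (adjusted p = 0.0191). These genes belong to a family of near-identical copies, so their values are uncertain where reads could be split between copies. Of all 15 genes with the most positive difference, 11 kept the call with each of the 16 libraries left out in turn.

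On the negative side, 10 of the 15 named genes had a KO effect called in fully grown oocytes alone, and in most of them the gene was near 0 in growing oocytes and high in fully grown WT oocytes. Robo2 (chromosome 16, 73891839 to 74411825, minus strand), a receptor for SLIT guidance proteins, was at 18.9, 26.8, 12.9 and 16.2 RPKM in WT fully grown libraries and at 1.89, 2.40, 4.10 and 7.08 RPKM in KO ones. All 8 growing libraries were under 1 RPKM. The genotypes did not overlap in the fully grown phase, and the difference between phases was -2.54 ± 0.24 (SE; limma, adjusted p = 0.000313). The X-linked gene Prr32 was at 18.5 to 23.3 RPKM in WT and 3.60 to 5.94 RPKM in KO fully grown libraries, and under 1 RPKM in growing ones (difference -2.08, adjusted p = 0.000517). Gm30564 was at 7.80 to 10.6 RPKM in WT fully grown libraries and under 1 RPKM in the other 12 (difference -2.42, adjusted p = 0.000179). Cltrn, the X-linked gene for the collectrin protein that traffics amino acid transporters in the kidney, was at 5.28 to 11.9 RPKM in WT fully grown libraries and at 0.586 to 1.56 RPKM in the other 12 (difference -2.11, adjusted p = 0.00324).

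The remaining members of this class were of like size. 1700001G11Rik differed by -2.50 (limma, adjusted p = 0.00111), 2700069I18Rik by -2.09 (0.00118), Gm48721 by -2.31 (0.00485), Gm7525 by -2.24 (0.0197), Prelid2 by -2.34 (0.02) and the prolactin-family gene Prl8a2 by -2.08 (0.0279). Gm7525 and Prelid2 kept the call in 15 of 16 fits with a library left out, Prl8a2 in 9, and the other 3 in all 16. Prl8a2 was unlike the rest in being well above 0 in growing oocytes, at 11.3 to 28.3 RPKM in both genotypes.

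Akr1b8 (chromosome 6, 34354119 to 34368463, plus strand), an aldo-keto reductase gene, fell in KO in both phases and more so in fully grown oocytes. It was at 12.5, 18.5, 14.7 and 8.68 RPKM in WT growing libraries and 68.6, 49.6, 70.3 and 61.4 RPKM in WT fully grown ones. All 8 KO libraries lay between 1.48 and 3.26 RPKM. WT rose with growth by 2.15, the change in KO was -0.21 (limma, adjusted p = 0.318), and the difference between phases was -2.37 ± 0.25 (SE; limma, adjusted p = 0.000588). Adgrv1, an adhesion G protein-coupled receptor gene, did the same at a lower level: WT rose from 1.14 to 1.78 RPKM in growing to 8.80 to 11.6 RPKM in fully grown libraries, and KO stayed at or under 0.532 RPKM (difference -2.24, adjusted p = 0.000179).

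Reg3g (chromosome 6, 78466269 to 78468872, minus strand), a secreted antibacterial C-type lectin in the gut, was the one gene of the 30 called in opposite directions in the 2 phases. In growing oocytes it was at 0.0901, 0.181, 0.173 and 0.091 RPKM in WT and at 0.863, 0.436, 0.663 and 1.37 RPKM in KO. In fully grown oocytes it was at 9.28, 11.6, 13 and 19.1 RPKM in WT and at 1.74, 2.11, 2.46 and 2.46 RPKM in KO. The genotypes were apart in both phases, with KO higher in the first and lower in the second, although the growing levels are near or below 1 RPKM, where the scale compresses differences. The KO effect was 0.67 in growing and -2.12 in fully grown oocytes, a difference of -2.79 ± 0.23 (SE; limma, adjusted p = 0.000179). Gpat3, an enzyme of glycerolipid synthesis, differed by -2.92 (adjusted p = 0.0391) with a call in neither phase alone and kept the call in 5 of 16 fits. Gm15536 differed by -5.47 (adjusted p = 0.0284) from values that jumped between 0 and 55.6 RPKM in fully grown libraries, and kept the call in 7.

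**Figure D2:**
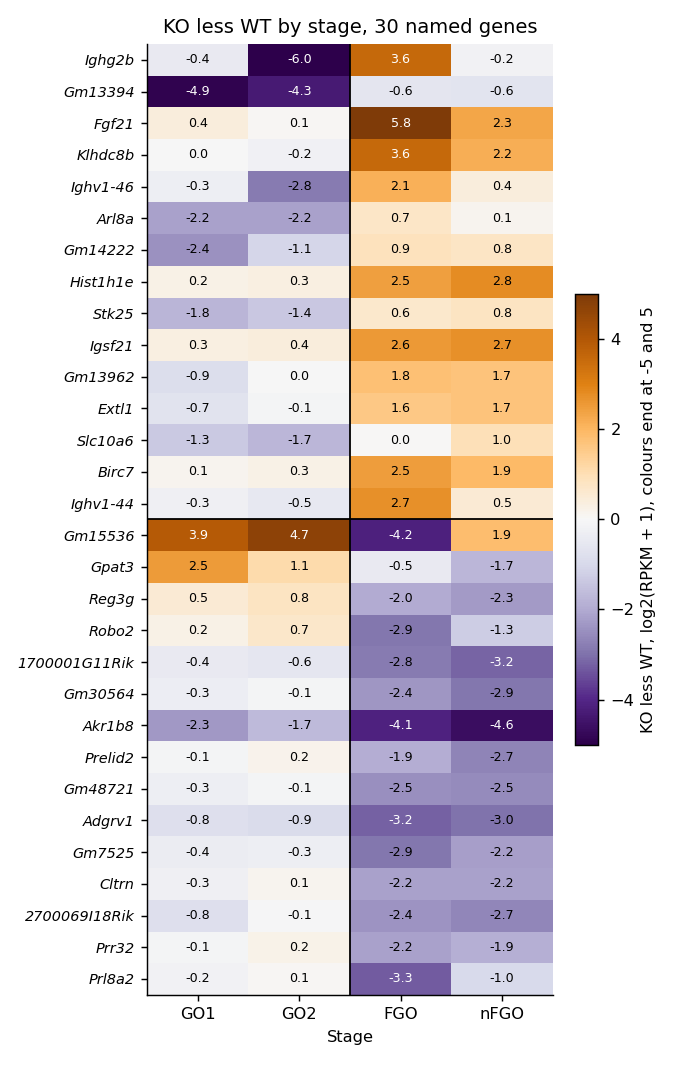
KO less WT difference on the log2(RPKM + 1) scale at each of the 4 stages (columns) for the 15 genes with the most positive and the 15 with the most negative difference between phases (rows, separated by the horizontal line), with values printed in the cells. On this scale, which compresses differences of low genes, Klhdc8b, Hist1h1e, Igsf21 and Birc7 are near 0 at GO1 and GO2 and positive at FGO and nFGO. Arl8a and Stk25 are negative at GO1 and GO2 alone.

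The 30 genes were chosen by the size of this difference, so its size in them is a description. With each of the 16 libraries left out in turn, 21 of the 30 kept the call every time, as did 426 of all 993 genes. In the authors' deposited table, the log2 fold changes of the fully grown stages less those of the growing stages had the same sign as here for all 29 of these genes that had a value. That table rests on the same libraries, and for Gm15536 its values differed between phases by only -0.12, against -5.47 here.

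The sequences around the transcription start are shown for the first 2 named genes in each direction with a RefSeq promoter window (250 bases before to 50 after the start, GRCm38.p6, the mm10 build), to show how unlike the starts of these genes are. They are Fgf21 (chr7:45615441-45615740, minus strand), Klhdc8b (chr9:108461532-108461831, minus strand), Gpat3 (chr5:100845979-100846278, plus strand) and Reg3g (chr6:78468825-78469124, minus strand). Capitals mark TATAAA (or its reverse complement) and the palindrome CACGTG, both searched on both strands.
Fgf21: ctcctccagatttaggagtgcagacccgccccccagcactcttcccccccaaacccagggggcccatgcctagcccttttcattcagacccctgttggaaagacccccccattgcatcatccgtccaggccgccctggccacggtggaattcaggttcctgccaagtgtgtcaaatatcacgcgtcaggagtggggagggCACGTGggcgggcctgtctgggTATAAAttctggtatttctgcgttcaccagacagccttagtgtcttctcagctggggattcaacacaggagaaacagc
Klhdc8b: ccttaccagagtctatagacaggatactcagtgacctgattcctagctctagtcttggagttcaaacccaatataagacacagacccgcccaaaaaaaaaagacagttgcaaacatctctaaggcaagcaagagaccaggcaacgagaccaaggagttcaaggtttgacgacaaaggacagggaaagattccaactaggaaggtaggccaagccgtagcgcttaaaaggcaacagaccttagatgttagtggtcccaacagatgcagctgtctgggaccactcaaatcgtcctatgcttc
Gpat3: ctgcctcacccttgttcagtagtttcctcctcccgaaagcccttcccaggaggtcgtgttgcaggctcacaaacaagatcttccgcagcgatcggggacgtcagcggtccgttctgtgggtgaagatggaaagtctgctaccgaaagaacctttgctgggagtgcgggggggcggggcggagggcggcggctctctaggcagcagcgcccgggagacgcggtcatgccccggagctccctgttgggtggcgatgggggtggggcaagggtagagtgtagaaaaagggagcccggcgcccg
Reg3g: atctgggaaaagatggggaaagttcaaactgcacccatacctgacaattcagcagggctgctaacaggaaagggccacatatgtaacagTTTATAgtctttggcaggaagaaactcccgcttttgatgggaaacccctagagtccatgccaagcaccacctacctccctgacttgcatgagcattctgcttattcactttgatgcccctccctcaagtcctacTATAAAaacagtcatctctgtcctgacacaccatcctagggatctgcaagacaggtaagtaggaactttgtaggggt
Fgf21 holds both motifs close before the start, and Reg3g holds TATAAA on both strands with 1 CG dinucleotide in the window. Gpat3 holds neither motif and 23 CG dinucleotides, and the Klhdc8b window shown holds neither motif. Klhdc8b had 2 windows, and only the first was searched. The shares below likewise rest on 1 window per gene. Windows were found for 10088 of the 14557 genes tested, 339 of the 497 more positive and 363 of the 496 more negative genes. TATAAA was in 7.59% of all these windows, in 9.44% of the more positive and in 7.16% of the more negative genes. CACGTG was in 9.96%, 8.55% and 7.99%, and TAATTG, a homeodomain core, in 5.28%, 5.60% and 7.16%. The median number of CG dinucleotides was 20 over all windows, 16 in the more positive and 18 in the more negative genes. A match is a run of letters and not a measured binding site.

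Gene groups were read as counts of members whose KO effect differed between phases, beside the 3.41% called in each direction and the median of -0.0046 over all genes tested. Among chromatin genes, 3 of 6 linker histone genes tested (9 listed) were more positive and 0 more negative, with a median difference of 0.50. Hist1h1e is described above. Hist1h1a was at 8.49 to 15.4 RPKM in all growing libraries, at 25.5 to 62.5 RPKM in WT and 64.2 to 110 RPKM in KO fully grown ones (difference 0.89 ± 0.17 SE, limma adjusted p = 0.012). H1f0 was at 16.8 to 22.3 RPKM in growing libraries, at 19.7 to 25.0 RPKM in WT and 33.5 to 51.5 RPKM in KO fully grown ones (difference 0.69 ± 0.13 SE, adjusted p = 0.0115). In both genes the KO and WT libraries did not overlap in fully grown oocytes and overlapped in growing ones. Linker histone genes are similar in sequence, so reads may be shared between them.

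Of 17 genes for H2A variants and H3.3 chaperones, 2 were more positive and 1 more negative. H2afz, the gene for H2A.Z, was at 224 to 350 RPKM in growing libraries of both genotypes. With growth it fell to 40.3, 37.7, 40.2 and 39.2 RPKM in WT and to 75.2, 68.7, 108 and 101 RPKM in KO. The fall with growth was smaller in KO, and the difference between phases was 1.21 ± 0.13 (SE; limma, adjusted p = 0.000588). H2afv, its paralogue, differed by 0.51 (adjusted p = 0.0089). Atrx, the X-linked remodeller that deposits H3.3 with DAXX, fell in KO in both phases, from 227 to 324 RPKM in WT to 160 to 183 RPKM in growing and from 301 to 316 RPKM in WT to 84.6 to 148 RPKM in fully grown oocytes (difference -0.78, adjusted p = 0.00186).

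Among 11 partners of SNF2H in ISWI complexes, 1 differed in each direction. Baz1a, the ACF1 subunit, was at 32.7 to 46.2 RPKM in growing libraries of both genotypes, and at 29.0 to 33.1 RPKM in WT and 11.7 to 21 RPKM in KO fully grown ones (difference -0.71, limma adjusted p = 0.00947). Chrac1, a histone-fold subunit of CHRAC, was at 2.70 to 4.37 RPKM in WT and 5.97 to 11 RPKM in KO fully grown libraries (difference 0.83, adjusted p = 0.0417, kept in 4 of 16 fits with a library left out). In 24 replication-dependent core histone genes 1 was more positive, Hist1h4d (1.98, adjusted p = 0.00299). None of 25 Polycomb genes and none of 17 CTCF and cohesin genes was called by limma (6 and 2 at an unadjusted p under 0.05), with medians of 0.12 and -0.08. Among 17 genes of DNA methylation 3 were more negative and 0 more positive, with a median of -0.20, and the count of 3 was 1 in 7 of the 16 fits with a library left out. They were Nsd1, an H3K36 methyltransferase (-0.89, adjusted p = 0.006), Dppa3, which protects maternal methylation (-0.49, adjusted p = 0.0286, kept in 8 of 16 fits), and the de novo methyltransferase Dnmt3a (-0.37, adjusted p = 0.0454, kept in 2).

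Among the imprinted genes, 3 of 17 tested (31 listed) differed. Phlda2, a placental growth repressor that is maternally expressed, was at 12.9 to 24 RPKM in WT and 7.20 to 12.6 RPKM in KO growing libraries, and at 16.2 to 31.9 RPKM in WT and 31.6 to 40.6 RPKM in KO fully grown ones, called in opposite directions in the 2 phases (difference 1.47 ± 0.27 SE, limma adjusted p = 0.00899). Impact, an inhibitor of GCN2, was at 5.92 to 11.4 RPKM in growing libraries of both genotypes, and at 6.12 to 10.2 RPKM in WT and 2.42 to 3.65 RPKM in KO fully grown ones (difference -1.46, adjusted p = 0.00247). Mcts2, a retrogene, differed by -0.97 (adjusted p = 0.0383, kept in 4 of 16 fits).

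Targets of the integrated stress response, the pathway in which ATF4 induces amino acid and stress genes, had a median difference of 0.49 over the 20 tested (28 listed). The KO effect was more positive in 3 of the 20 and more negative in 0, and the first count was 6 without KO GO1 replicate 2, 5 without WT FGO replicate 1 and at least 2 in every fit with a library left out. In fully grown oocytes 9 of the 20 were higher in KO and 0 lower (13.7% and 17.4% of all genes tested), and in growing oocytes 1 was higher and 0 lower (2.97% and 6.2%). Atf4 itself was at 62.4 to 90.3 RPKM in all growing and WT fully grown libraries. In KO it was at 165 and 200 RPKM at FGO and at 105 and 104 RPKM at nFGO, so all 4 lay above the rest (difference 0.74 ± 0.11 SE; limma, adjusted p = 0.00257). Chac1, which degrades glutathione, fell with growth in WT from 4.25 to 6.32 RPKM to 0.851 to 1.56 RPKM. KO held 4.17 and 5.32 RPKM at FGO and 1.57 and 1.25 RPKM at nFGO (difference 1.12, adjusted p = 0.00407). By stage, 8 of the 20 were higher in KO at FGO (7.67% of all genes tested) and 1 at nFGO (6.77%), but the test of FGO less nFGO called none of them (limma; 5 at an unadjusted p under 0.05).

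Growth signalling genes gave calls of both signs. Of 27 genes of the PI3K, FOXO3 and mTOR pathways, 1 was more positive and 2 more negative. Eif4ebp1, the translation repressor 4E-BP1 and also an ATF4 target, fell with growth in WT from 19.2 to 31.9 RPKM to 2.27 to 4.01 RPKM. KO held 13.8 and 17.7 RPKM at FGO, and 6.39 and 4.01 RPKM at nFGO, where it met the WT range (difference 1.85 ± 0.25 SE; limma, adjusted p = 0.002). Pik3r1, the regulatory subunit of PI3K, differed by -0.90 (adjusted p = 0.00888). Of 17 BMP and TGF-beta signalling genes tested, 4 were more positive and 0 more negative, while the median was -0.02, and the count of 4 was 1 or 2 in 12 of the 16 fits with a library left out. The 4 were the BMP target genes Id1, Id2 and Id3 and the pseudoreceptor Bambi. Id3 was at 99.1 to 182 RPKM in growing libraries and fell to 2.78 to 7.39 RPKM in WT and 7.59 to 11.5 RPKM in KO fully grown ones (difference 1.07, adjusted p = 0.0324, kept in 8 of 16 fits). Id1 was under 2 RPKM throughout (1.47, adjusted p = 0.00435), Bambi differed by 0.71 (adjusted p = 0.0326, kept in 5) and Id2 by 0.57 (adjusted p = 0.0383, kept in 3). Id1, Id3 and Bambi were called higher in KO in fully grown oocytes alone. Id2 was instead called lower in KO in growing oocytes alone (effects -0.64 in growing and -0.06 in fully grown oocytes).

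Of 21 genes of calcium handling, used by the egg at activation, 4 were more negative and 0 more positive (median -0.16). The first count was 2 in 9 of the 16 fits with a library left out. In fully grown oocytes 9 of the 21 were lower and 2 higher in KO (17.4% and 13.7% of all genes tested), and without KO nFGO replicate 1 the count of lower genes was 5. Calb1, the calcium buffer calbindin, was at 21.5, 16.7, 22.3 and 26.6 RPKM in WT and at 2.27, 0.418, 2.16 and 2.65 RPKM in KO fully grown libraries. In growing oocytes it was at 4.91 to 6.86 RPKM in WT and 1.65 to 2.58 RPKM in KO, so the genotypes were apart in both phases and further in the second (difference -1.85 ± 0.32 SE; limma, adjusted p = 0.00619). Pcp4, a calmodulin regulator, differed by -1.82 (adjusted p = 0.00882), Mcu, the mitochondrial calcium uniporter, by -0.86 (adjusted p = 0.0324, kept in 6 of 16 fits) and Itpr1, the main calcium release channel of the egg, by -0.72 (adjusted p = 0.0492, kept in 2).

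Of 35 spindle organisers, 5 were more negative and 1 more positive (median -0.15). With a library left out these counts ran from 3 (in 8 of the 16 fits) to 7 (without KO GO1 replicate 1) and from 0 to 3. In fully grown oocytes 12 were lower and 3 higher in KO (17.4% and 13.7% of all genes tested), with 8 lower without KO FGO replicate 2. Kif23, a kinesin of the central spindle, was at 256 to 416 RPKM in growing libraries of both genotypes, and at 548 to 611 RPKM in WT and 320 to 357 RPKM in KO fully grown ones (difference -0.56 ± 0.09 SE; limma, adjusted p = 0.00514). Haus7, an augmin subunit, differed by -0.94 (adjusted p = 0.00447) and Ckap5, a microtubule polymerase, by -0.83 (adjusted p = 0.0108). In the same range were Bub1b, the spindle checkpoint kinase BUBR1 (-0.64, adjusted p = 0.0245, kept in 10 of 16 fits), and Ccnb3, cyclin B3 (-0.90, adjusted p = 0.0134). They were 1 of 2 called among 27 genes of the anaphase-promoting complex and spindle checkpoint and the 1 called among 24 CDK and cyclin genes.

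Meiotic recombination genes split evenly, with 2 of 22 more positive and 2 more negative. Mei4, which takes part in forming meiotic double-strand breaks, had the largest difference of the 4. It rose with growth in WT from 3.87 to 5.01 RPKM to 80.1, 80.7, 71.4 and 78.0 RPKM. In KO it rose from 1.97 to 6.48 RPKM to 20.8, 9.16, 33.6 and 32.4 RPKM, and the fully grown genotypes did not overlap (difference -1.51 ± 0.27 SE; limma, adjusted p = 0.00845). Meioc, which germ cells need to pass through meiotic prophase, was at 0.840 to 2.54 RPKM in WT fully grown libraries and at most 0.27 RPKM in the other 12 (difference -1.11 ± 0.14 SE, adjusted p = 0.0015). The growing libraries of both genotypes are among these 12, at levels where the scale compresses differences. The authors' log2 fold changes for Meioc were -2.04 at GO1, -3.14 at GO2, -3.83 at FGO and -4.48 at nFGO. These estimates from the same libraries were thus below 0 in growing oocytes too. The test here did not call a KO effect on Meioc in growing oocytes (-0.19, limma adjusted p = 0.271). Sycp3, of the synaptonemal complex, fell from 137 to 310 RPKM in growing libraries to 30.3 to 46.4 RPKM in WT and 58.7 to 76.5 RPKM in KO fully grown ones (difference 1.07, adjusted p = 0.0419, kept in 4 of 16 fits). Hormad2, a chromosome axis gene, was lower in KO growing and higher in KO fully grown oocytes by the test (effects -0.67 and 0.57, difference 1.24, adjusted p = 0.02).

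**Figure D3:**
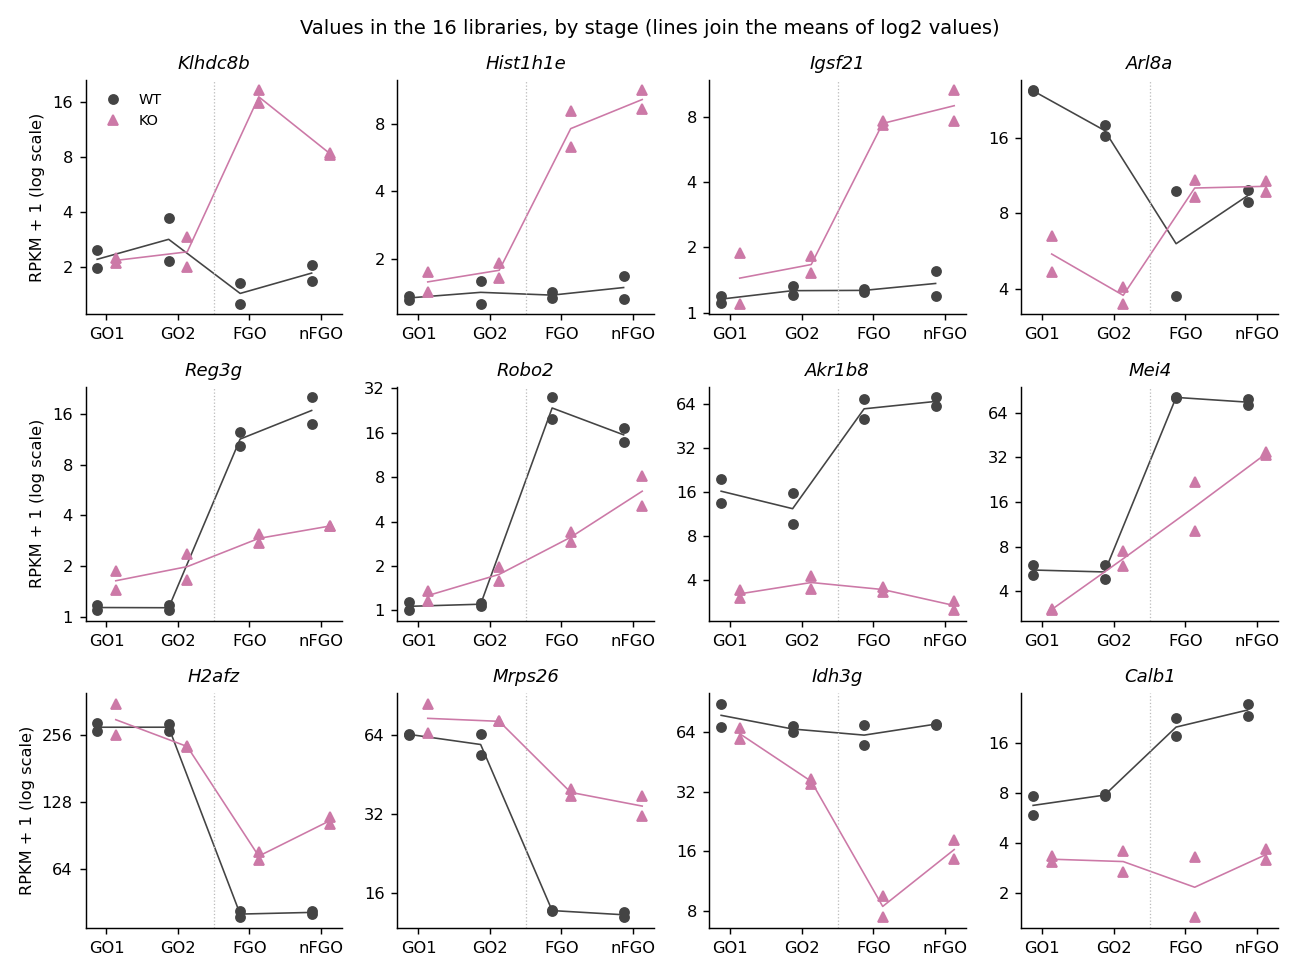
RPKM + 1 (log scale) of 12 genes in each library at the 4 stages, WT as circles and KO as triangles, 2 libraries per group, with lines joining the group means of log2 values. For H2afz and Mrps26 the fully grown KO values lie between those of growing and of fully grown WT oocytes, and for Mei4 and Robo2 the fully grown KO values lie below the WT ones.

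Metabolic genes differed in a few members. Idh3g, the X-linked regulatory subunit of mitochondrial isocitrate dehydrogenase, was the 1 gene called among 40 genes of glycolysis, pyruvate use and the citrate cycle. It was at 63.3 to 87.6 RPKM in WT growing libraries and 54.1 to 69.5 RPKM in WT fully grown ones. In KO it fell from 57.8 and 66.0 RPKM at GO1 and 34.0 and 36.2 RPKM at GO2 to 6.43 and 8.56 RPKM at FGO and 13.6 and 17.2 RPKM at nFGO (difference -1.90 ± 0.17 SE; limma, adjusted p = 0.000253). Of 20 genes of the malate-aspartate shuttle and amino acid metabolism, 2 were more negative and 1 more positive. The mitochondrial aspartate-glutamate carrier Slc25a13 was at 24.5 to 30.7 RPKM in WT and 5.19 to 20.2 RPKM in KO fully grown libraries, and at 2.08 to 7.46 RPKM in growing ones (difference -1.51, adjusted p = 0.0115). Got1, the cytosolic aspartate aminotransferase of the same shuttle, fell in KO in both phases (effects -1.94 and -3.12, difference -1.18, adjusted p = 0.0384, kept in 3 of 16 fits).

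Of 78 mitochondrial ribosomal protein genes, 8 were more positive and 1 more negative, with a median of 0.05, and the first count ran from 5 to 13 (without KO GO1 replicate 2) with a library left out. In fully grown oocytes 23 were higher and 11 lower in KO, where 13.7% and 17.4% of all genes tested were. Mrps26 was at 52.7 to 82.8 RPKM in growing libraries, and at 12.7, 12.6, 12.5 and 11.9 RPKM in WT and 38.8, 36.5, 36.3 and 30.4 RPKM in KO fully grown ones (difference 1.19 ± 0.14 SE; limma, adjusted p = 0.000957). Mrpl17 differed by 0.70 (adjusted p = 0.00299). Among 83 cytosolic ribosomal protein genes 2 were more positive, Rpl9 with a difference of 0.81 (adjusted p = 0.00435), and the median was 0.04. Of 86 genes of oxidative phosphorylation 2 were called in each direction, among them Cyc1 (0.95, adjusted p = 0.00847) and Ndufb7 (-0.74, adjusted p = 0.0212). These lists also differed within the growing phase: the KO effect was more negative at GO2 than at GO1 in 42 cytosolic ribosomal, 11 mitochondrial ribosomal and 35 oxidative phosphorylation genes (2.16% of all genes tested), and more positive in 0, 0 and 1 (1.84%). At GO1 22 cytosolic ribosomal genes were higher and 0 lower in KO (2.16% and 4.47% of all genes tested), and at GO2 0 were higher and 28 lower (2.96% and 4.68%). The counts of calls between GO2 and GO1 depended on the scaling and on single libraries. Under quantile normalization they were 24, 3 and 16. Without KO GO1 replicate 2 they were 51, 15 and 47, and without KO GO2 replicate 2 each was 0 by limma, where 64, 19 and 51 genes were more negative at an unadjusted p under 0.05.

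**Figure D4:**
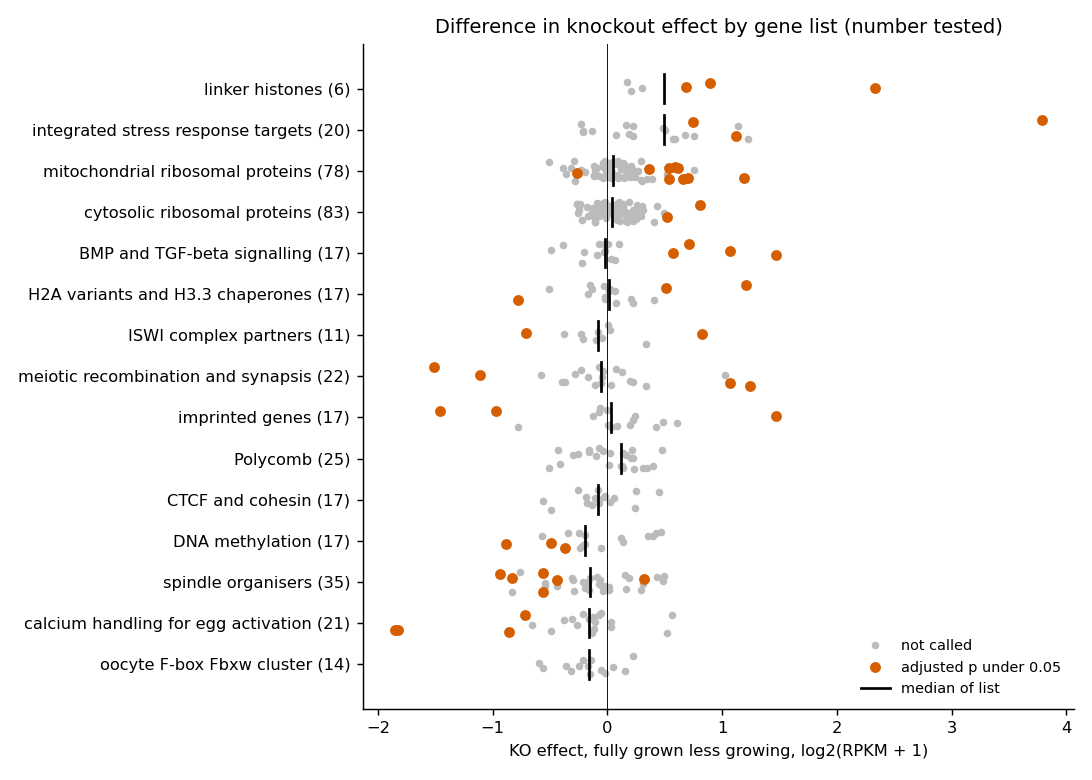
Difference in KO effect (fully grown less growing, log2(RPKM + 1)) of every tested member of 15 gene lists, with called members in orange, the others in grey and the list median as a black bar. Linker histones (median 0.50) and integrated stress response targets (0.49) lie to the right of 0, and the Polycomb, CTCF and cohesin and Fbxw lists hold no called member.

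Several other lists held no gene whose KO effect differed between phases by limma, although members changed in KO. These counts stand beside 6.2% of all genes lower in growing and 17.4% in fully grown oocytes. Of 14 genes of the oocyte F-box Fbxw cluster, 6 were lower in KO growing and 11 in KO fully grown oocytes, none higher, and the median difference between phases was -0.16 (2 at an unadjusted p under 0.05, and 2 called under quantile normalization). Of 10 oocyte NLRP genes 4 were lower in growing and 5 in fully grown oocytes (median difference -0.03, 2 at an unadjusted p under 0.05). Of 24 genes of cholesterol synthesis and uptake 3 and 9 were lower (median -0.05, 2 at an unadjusted p under 0.05). No member was called among 13 genes of cAMP and prophase arrest, 17 heat shock genes, 19 genes of the p53 and DNA damage checkpoint, 11 two-cell stage genes and 5 Obox genes, where 2, 3, 2, 1 and 0 had an unadjusted p under 0.05. A miss at this threshold does not show that the effects were equal. In simulated data with 1 spread per gene for all groups, taken from this test, 30% of 1.5-fold and 82% of 2-fold differences were found. These differences were set only in genes above 5 RPKM in every WT stage, so the shares do not cover genes at lower levels.

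A few listed genes were called in both phases in opposite directions. Serpinb12, a serine protease inhibitor gene, was higher in KO growing oocytes (effect 0.67) and lower in KO fully grown ones (-0.49; difference -1.16, limma adjusted p = 0.00582). Its values were 16.0 to 40.2 RPKM against 14.2 to 19.9 RPKM in WT in growing, and 28.2 to 34.4 RPKM against 40.5 to 52.7 RPKM in fully grown libraries. Zfp708, a zinc finger gene, had effects of 0.85 and -0.37 (difference -1.22, adjusted p = 0.00131), but at nFGO its KO values of 35.2 and 31.7 RPKM lay close to the WT values of 36.2 and 36.1 RPKM. Tead2, a partner of YAP in transcription, changed in fully grown oocytes alone, at 1.23 to 3.38 RPKM in WT and 5.08 to 7.82 RPKM in KO libraries (difference 1.54, adjusted p = 0.0105).

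Many of the genes above rose or fell with growth in WT, so the direction of WT growth was read in libraries that did not choose the genes. From the 8 libraries of GO2 and nFGO alone, the KO effect was more positive at nFGO in 237 genes (1.63%) and more negative in 274 (1.88%). In the WT libraries of GO1 and FGO, 2 per stage, 55.8% of the 274 more negative genes were higher at FGO than GO1 and 11.7% lower. Over all genes tested these shares were 25.5% and 23.3%. Of the 237 more positive genes, 41.4% were lower in WT FGO than in WT GO1 and 19.4% higher. The 8 GO1 and FGO libraries of both genotypes gave a KO effect more positive at FGO than at GO1 for 151 (63.7%) of the 237. It was so for 79 (28.8%) of the 274, against 50.3% of all genes tested. The median difference of the 237 genes was 0.88 from GO2 and nFGO and 0.19 from GO1 and FGO. For the 274 it was -1.15 and -0.31. Over all genes tested the 2 sets correlated at 0.25 (Pearson). From GO1 and FGO alone, 18 of 14557 genes were called more positive and 22 more negative. At nFGO less GO2 the difference was above 0 in 17 of the 18 and 4 of the 22. In WT, 6 of the 18 were lower at nFGO than GO2 and 2 higher, and 12 of the 22 were higher and 2 lower. The GO1 and FGO libraries and those of GO2 and nFGO have none in common. Oocytes of both could share animals, which the labels do not tell. Low levels bear on both groups: the mean in WT growing oocytes was under 1 RPKM in 107 of the 496 more negative genes (21.6%) and in 11.1% of all genes tested, and a gene near 0 in WT cannot be much lower in KO. In fully grown WT oocytes the mean was under 1 RPKM in 80 of the 497 more positive genes (16.1%) and in 11.4% of all genes tested.

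**Figure D5:**
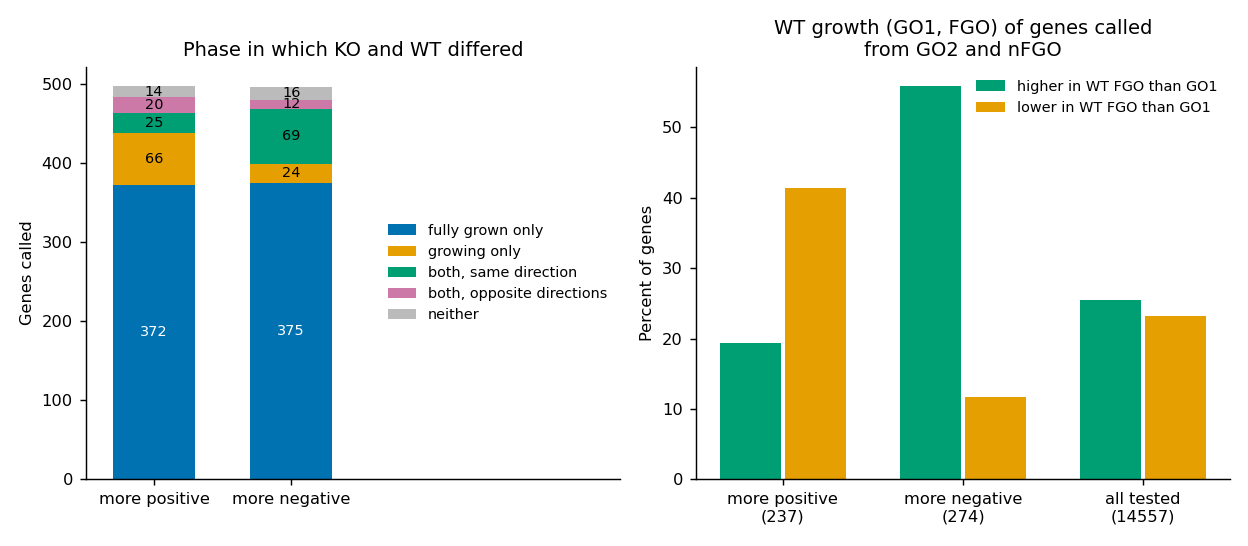
Left, number of genes whose KO effect was more positive (497) or more negative (496) in fully grown oocytes, split by the phase in which KO and WT differed by the test. Right, percent of the 237 more positive and 274 more negative genes called from GO2 and nFGO, and of all 14557 genes, that were higher or lower in WT FGO than in WT GO1, read in other libraries: 55.8% of the more negative genes were higher and 41.4% of the more positive ones lower.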

How the data were processed

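RNA was measured in 16 libraries of 20 oocytes. Per the file headers, the deposited table gives RPKM per gene and library, with the authors' own log2 fold changes of KO over WT per stage. Per the submitters' processing notes, the tools were Trim Galore (0.4.5), HISAT2 (version 2.1.0), and Cufflinks (version 2.2.1) together with Cuffnorm, and the build was mm10. The order and settings of these steps are not given in the sources used here, nor whether reads were counted by strand, so overlapping antisense genes cannot be separated. The table held 18060 lines for 16975 IDs. Of these, 35 IDs were left out because each stood on 32 lines with conflicting nFGO values, which left 16940 genes, 16936 of them matched to a symbol. RPKM totals ran from 832384 to 1011538, and 12613 to 12919 genes reached 1 RPKM per library. Whole reads could not be recovered (19.2 to 25.6% of ratios of low values between libraries lay within 1% of ratios of small whole numbers), so depth is unknown and no interval from counts is given.

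Values were taken as log2(RPKM + 1), which understates the change of low genes. The test covered the 14557 genes that reached 1 RPKM in 2 or more libraries, in limma 3.58.1 (R 4.3.3), with 1 mean per group of genotype and stage, a variance trend, 8 residual degrees of freedom and no replicate block. Benjamini-Hochberg adjustment of p-values was over all genes tested, and adjusted p under 0.05 was a call. An effect is a difference in log2(RPKM + 1), and RPKM values are given per library or as a range. The test was run on simulated data with normal noise and 1 spread per gene for all groups, taken from the test itself. There 4.91% of its calls were false. This share cannot give the error rate in the real libraries, because the simulation met the assumptions of the test. The real groups differed in spread: the SD of the log2 difference between replicates was 0.476 in KO GO1 and 0.319 in KO GO2. The text names the 15 most positive and 15 most negative called genes with at least 5 RPKM in the highest of the 4 means of genotype and phase and the same sign in all 4 stage pairs, up to 4 called members of each of 51 lists, and Smarca5. Members, lists and tests were chosen with earlier results of these data known. Alternatives were other pseudocounts (0.1, 5), filters, scalings, variance models, a replicate block, single stages as a phase and each library left out. Reading WT growth in libraries that did not choose the genes was added after seeing the data.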

Additional observations from a re-analysis of the deposited data

Results flagged for a closer look

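Each value below is a difference in KO effect, fully grown less growing, in log2(RPKM + 1), for a gene whose effect in the 2 phases differed by limma's test of the difference itself. Groups of 2 libraries are too small for a test of single outlying libraries. Among the genes with the most positive difference, those with a KO effect called in fully grown oocytes were Fgf21 3.79, Klhdc8b 3.01, Hist1h1e 2.33, Igsf21 2.27, Gm13962 2.17, Extl1 2.04, Birc7 2.02 and Ighv1-44 2.0. Those with a lower value in growing KO oocytes were Ighg2b 4.96, Gm13394 3.97, Arl8a 2.61, Gm14222 2.57, Stk25 2.28 and Slc10a6 2.02, and Ighv1-46 (2.82) was called in neither phase alone. On the negative side stood Robo2 -2.54, 1700001G11Rik -2.50, Gm30564 -2.42, Prelid2 -2.34, Gm48721 -2.31, Gm7525 -2.24, Cltrn -2.11, 2700069I18Rik -2.09, Prr32 -2.08 and Prl8a2 -2.08. Larger falls in fully grown than in growing oocytes were found for Akr1b8 -2.37 and Adgrv1 -2.24. Reg3g (-2.79) was called in opposite directions, and Gm15536 -5.47 and Gpat3 -2.92 were not lower by the test in fully grown oocytes.

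Among listed genes of chromatin and imprinting the values were Hist1h1a 0.89, H1f0 0.69, Hist1h4d 1.98, H2afz 1.21, H2afv 0.51, Atrx -0.78, Chrac1 0.83, Baz1a -0.71, Nsd1 -0.89, Dppa3 -0.49, Dnmt3a -0.37, Phlda2 1.47, Impact -1.46 and Mcts2 -0.97. For stress and signalling genes they were Chac1 1.12, Atf4 0.74, Eif4ebp1 1.85, Pik3r1 -0.90, Id1 1.47, Id2 0.57, Id3 1.07, Bambi 0.71 and Tead2 1.54. For calcium, spindle and cell cycle genes they were Calb1 -1.85, Pcp4 -1.82, Mcu -0.86, Itpr1 -0.72, Haus7 -0.94, Ckap5 -0.83, Kif23 -0.56, Bub1b -0.64 and Ccnb3 -0.90. For meiotic genes they were Mei4 -1.51, Meioc -1.11, Hormad2 1.24 and Sycp3 1.07. For mitochondrial, ribosomal and metabolic genes they were Mrps26 1.19, Mrpl17 0.70, Rpl9 0.81, Cyc1 0.95, Ndufb7 -0.74, Idh3g -1.90, Slc25a13 -1.51 and Got1 -1.18. The other listed genes were Serpinb12 -1.16 and Zfp708 -1.22, and the granulosa markers Fshr 1.20 and Inha 2.01.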

How the results depend on the processing

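The 133 named genes include Smarca5 and members of lists without a call. No difference among them that was called in the main fit or in the alternative changed sign between these fits. Sign changes of differences called in neither fit were not counted. Other pseudocounts (0.1 and 5), no filter or a filter of 5 RPKM, equal library medians, quantile normalization and robust empirical Bayes kept the total counts of calls within 1.5-fold, though quantile normalization gave 186 more negative genes for GO2 less GO1 in place of 314, and 3 for FGO less nFGO in place of 6. The 497 genes with a more positive and the 496 with a more negative difference became 226 and 206 with FGO alone as the fully grown phase, 155 and 194 with nFGO alone, 187 and 183 with GO1 alone as the growing phase, 326 and 325 with 1 KO effect per phase, and the more negative ones 754 with GO2 alone. With 1 library left out they ran from 250 to 727 and from 262 to 657, the growing count from 559 to 2094, the fully grown count from 3476 to 5144, the GO2 less GO1 count from 4 to 2402 and the FGO less nFGO count from 2 to 28. Without a variance trend the last 2 counts were 101 and 4. The labels do not tell whether same-numbered KO and WT libraries were prepared together. Their deviations from their group means correlated at -0.01 (GO1), -0.02 (GO2), 0.10 (FGO) and 0.07 (nFGO) over 14557 genes. With 2 libraries per group, low correlations cannot show that such pairs were absent. A replicate block gave 302 more positive and 303 more negative genes, 5 for GO2 less GO1 and 0 for FGO less nFGO (limma; 1221 at an unadjusted p under 0.05), and 33 of the 133 named genes were no longer called. The call was lost for 51 of those 133 with FGO alone, 60 with nFGO alone, 69 with GO1 alone and 31 with GO2 alone. Not all of the 133 had a call to lose, here or under the replicate block. The cause of these changes was not tested. Fits on 1 stage or with a library out hold fewer libraries, and a lone library is then assumed to vary like the other groups. Depth is unknown, so low values carry no counting error.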
